A study of Mus musculus with 4 samples.

Results

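Cd79a, Cd79b, Blnk, Syk, Btk, Lyn and Plcg2, which encode the signalling parts of the pre-B cell receptor, were followed across 4 single-cell libraries of mouse bone marrow. They were taken by symbol, as 7 of the 32285 genes in the count matrices, and their raw UMIs (unique molecular identifiers, each standing for 1 captured RNA molecule) were summed over sets of cells. The study placed donor blood cells without the enhancer regulators MLL3 and MLL4 into host mice. Of the 4 libraries, 3 are of Kit+ cells, with control, Mll3/4 deleted or Mll3/4SI genotype, and the fourth is of B220lo cells of control genotype; each is 1 sample. All 4 carry the donor antigen CD45.2 and were taken 10 weeks after transplantation. Kit is a surface receptor of stem and progenitor cells, and a low level of B220 marks developing B cells and some plasmacytoid dendritic cells. The labels do not expand SI, and they give neither the number of mice behind a library nor the driver of the deletion.

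The pre-B receptor pairs the heavy chain with the surrogate light chain and signals through the CD79A and CD79B pair. LYN starts the phosphorylation of that pair, SYK binds to it, and the adaptor BLNK then brings BTK and the lipase PLCG2 together, which opens calcium and protein kinase C signalling. In the marrow this signal lets a cell with a working heavy chain divide, end surrogate light chain production and go on to light chain rearrangement. MLL3 and MLL4 are the histone methyltransferases best known for acting at enhancers.

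The libraries held 12205 to 16861 barcodes, of which 51679 cells in all were kept. The median total of a kept cell was 11594 UMIs in control Kit+, 6507 in deleted, 11969 in SI and 3246 in B220lo cells. With 1 library a group there is no replicate, so no test was made, and intervals are 95% intervals for counting error alone. Among the Kit+ libraries genotype cannot be told apart from library, and between the control libraries gate cannot be told apart from library. Between deleted Kit+ and B220lo cells genotype, gate and library differ together. Y-linked genes summed to 149 CPM (UMIs scaled to a total of 1000000) in the deleted library and to at most 0.515 elsewhere, while Xist stood at 0.314 CPM against 422 to 547, so sex differs with genotype as well. Kmt2c and Kmt2d, which encode MLL3 and MLL4, stood at 51.6 and 19.97 CPM in deleted against 58.5 and 24.1 CPM in control Kit+, 62.6 and 20.7 in SI and 147 and 41.7 in B220lo cells; reads from the 5′ end of a transcript do not check a deletion further along it. Any pair of libraries shared 214 to 345 barcode sequences, at most 2.34% of either. Cells were clustered without the members, other genes of their pathway and antigen receptor segments. Clusters were named from marker lists, and "B lineage-like" took in 12846 deleted and 12201 B220lo cells. None of the 12 B lineage markers was at 0 in either set, nor in any of their contig states described further on.

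The members lie on different chromosomes (GRCm38, GENCODE M21). Cd79a (ENSMUSG00000003379) spans chr7:24897381-24902197 on the plus strand, Cd79b (ENSMUSG00000040592) chr11:106311341-106314762 on the minus strand and Blnk (ENSMUSG00000061132) chr19:40928927-40994535 on the minus strand. Lyn (ENSMUSG00000042228) spans chr4:3678115-3813122 on the plus strand and Syk (ENSMUSG00000021457) chr13:52583173-52648792 on the plus strand. Btk (ENSMUSG00000031264) is X-linked, at chrX:134542336-134583570 on the minus strand, and Plcg2 (ENSMUSG00000034330) spans chr8:117498291-117635142 on the plus strand. Cd79a and Cd79b are short genes of 4817 and 3422 bases, and the other 5 are 41235 to 136852 bases long. RefSeq promoter windows (GRCm38.p6) matched 5 of the 7 members, all but Cd79b and Lyn. Shown are the stretches before the start of Cd79a, the member most abundant in the deleted library relative to its control, and of Btk, the member lowest relative to it, cut where an annotated exon begins. Both are written 5′ to 3′ along the gene, at chr7:24897247-24897380 (plus strand) and chrX:134583141-134583390 (minus strand). The Btk stretch precedes the start site of the RefSeq table, which lies within the GENCODE span given above, so it is not upstream of that span.
Cd79a: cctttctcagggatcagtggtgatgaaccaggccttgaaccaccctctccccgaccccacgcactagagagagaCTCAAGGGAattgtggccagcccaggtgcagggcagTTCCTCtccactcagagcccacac
Btk: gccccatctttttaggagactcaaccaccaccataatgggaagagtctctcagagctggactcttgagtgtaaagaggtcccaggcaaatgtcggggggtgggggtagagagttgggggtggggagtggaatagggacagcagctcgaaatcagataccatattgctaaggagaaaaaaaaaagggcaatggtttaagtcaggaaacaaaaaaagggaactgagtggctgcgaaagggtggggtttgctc
Capitals mark matches, on either strand, to an EBF-type motif (TCCCNNGNG), the octamer (ATGCAAAT) or a PU.1-type motif (GAGGAA). The Cd79a window held 1 EBF-type match and 1 PU.1-type match, which do not overlap, and no octamer. Among all 32851 windows of that length, 9.73% held the EBF-type motif, 13.3% the PU.1-type motif and 0.843% the octamer. The Btk window held no match to these letters, against 18.1%, 23.3% and 1.60% of windows of its length.

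Cd79a and Blnk were abundant in the deleted Kit+ library and almost absent from the other Kit+ libraries, whereas Btk and Plcg2 were lower there than in control Kit+ cells. Cd79a, the immunoglobulin-alpha chain of the receptor, stood at 3.78 CPM (interval 3.47 to 4.12) in control Kit+, 3542 (3531 to 3553) in deleted, 3.41 (3.12 to 3.72) in SI and 1989 (1979 to 1999) in B220lo cells. Blnk, the adaptor, stood at 1.46, 848, 0.875 and 472 CPM in the same order. For both genes the deleted library was the highest and the control Kit+ and SI libraries were the lowest. Cd79b, the immunoglobulin-beta chain, stood at 35.1, 345, 40.9 and 1244 CPM, so its highest library was B220lo.

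The kinases and the lipase had another order. Lyn, the Src-family kinase, stood at 69.0 CPM in control Kit+, 38.0 in deleted, 78.7 in SI and 515 in B220lo cells. Syk, the tandem SH2 kinase, stood at 75.7, 40.0, 91.8 and 477 CPM in that order. Btk, the Tec-family kinase, stood at 71.1, 11.8, 71.7 and 105 CPM. All 3 kinases were lowest in the deleted library and highest in B220lo, with intervals that did not overlap. Plcg2, the lipase, followed the same order at 69.5, 26.01, 94.4 and 181 CPM.

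**Figure D1:**
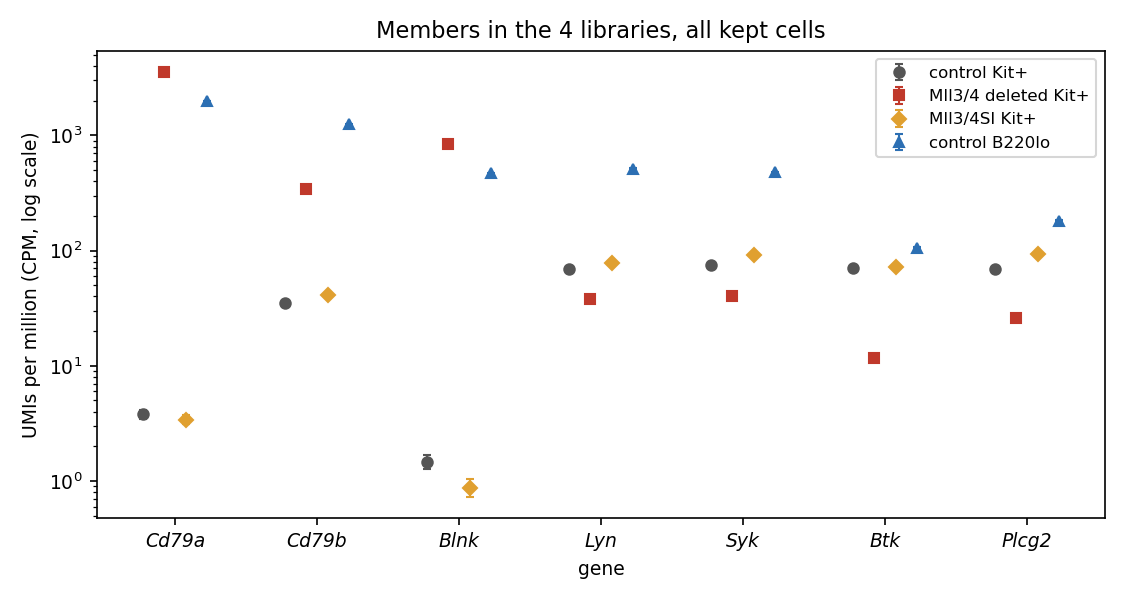
Level of each member (CPM on a log axis, with 95% counting intervals) in all kept cells of the 4 libraries. Cd79a, Cd79b and Blnk are high in the deleted and B220lo libraries, and Lyn, Syk, Btk and Plcg2 are lowest in the deleted library.

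Set against control Kit+, 3 members were past 2-fold higher in the deleted library, as were 16.7% of the 14388 genes compared: Cd79a at 936-fold (859 to 1021), Blnk at 580-fold (506 to 669) and Cd79b at 9.82-fold (9.53 to 10.1). Btk at 6.03-fold (5.69 to 6.39) and Plcg2 at 2.67-fold (2.56 to 2.78) were past 2-fold lower, as were 13.6% of genes. Lyn and Syk were 1.82-fold and 1.89-fold lower, short of that mark, and were past it with cells thinned to 2000 UMIs (log2 ratios of -1.01 and -1.06). In the SI library no member was past 2-fold from the same control cells in either direction, where 4.69% of genes were higher and 2.31% lower. The ratios of SI over control ran from 0.598 for Blnk to 1.36 for Plcg2. In B220lo cells 6 members were past 2-fold higher than in control Kit+, as were 21% of genes, with Btk the exception at 1.48-fold (1.43 to 1.52). These comparisons share the control Kit+ library.

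The libraries held different cells. B lineage-like cells were 93.4% of kept deleted cells and 79.3% of B220lo cells, against 0.389% of control Kit+ and 0.2% of SI cells. Within that class the deleted library kept high Cd79a and Blnk but had low kinases. Cd79a stood at 4070 CPM in deleted and 2806 CPM in B220lo B lineage-like cells, and Blnk at 974 and 605 CPM. Lyn stood at 33.6 against 630 CPM, Syk at 35.4 against 604, Btk at 2.96 against 128, Plcg2 at 18.6 against 202 and Cd79b at 389 against 1747. The 43 B lineage-like cells of the control Kit+ library, which were sorted through the same Kit gate and of which 22 were in cluster 12, 15 in cluster 14 and none in clusters 24 to 27, had 325 CPM of Lyn (246 to 421, 57 UMIs), 313 of Syk (236 to 408), 137 of Btk (87.6 to 203, 24 UMIs) and 279 of Plcg2 (207 to 369). The 23 such cells of the SI library had 147, 180, 60.0 and 153 CPM of the same genes. In both sets the lower bounds lay above the upper bounds of the deleted cells. Of the SI cells 16 were in cluster 12. Among B220lo cells of cluster 12, 92.4% had a light chain contig, against at most 0.211% in deleted clusters 24 to 27. The stage of the cells was therefore not matched here. The clusters of the class were not shared: 12825 of the deleted cells were in clusters 24 to 27, and 22 of the B220lo cells were there.

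In the HSPC-like and granulocyte-like classes, the 2 compared outside the B lineage, the kinases and Plcg2 in the deleted library were within 2-fold of control. In cells like haematopoietic stem and progenitor cells (HSPC-like; 3440 control, 240 deleted and 2911 SI cells) Btk stood at 76.8 CPM in control, 78.0 in deleted and 77.8 in SI cells. Lyn stood at 83.7, 85.3 and 101 CPM, Syk at 114, 103 and 124, and Plcg2 at 113, 118 and 135 in the same order. The intervals of deleted and control cells overlapped for these 4 genes. In granulocyte-like cells (3208, 475 and 3190) Btk stood at 64.2, 61.1 and 64.0 CPM, Lyn at 66.3, 57.4 and 64.2, Syk at 71.2, 56.4 and 78.5 and Plcg2 at 84.6, 64.7 and 87.9. There the deleted over control ratios were 0.952 (0.870 to 1.04) for Btk, 0.867 (0.790 to 0.949) for Lyn, 0.792 (0.722 to 0.867) for Syk and 0.764 (0.701 to 0.832) for Plcg2, so the last 3 were lower by more than counting error. Without cluster 8, 75 deleted cells whose median UMI total was 4.09 times that of their library, the log2 ratio was -0.02 for Btk and -0.35 for Plcg2. In the SI library 1737 of the granulocyte-like cells were in cluster 9, which held 5 control cells. The leading genes of cluster 9 included Prtn3, Ctsg and Mpo, and also Hdc, Cpa3 and Igfbp7. At resolution 0.5, Hdc, Cpa3 and Igfbp7 were among the leading genes of a cluster named basophil or mast-like, with 4984 SI cells. The identity of the SI cells in cluster 9 is therefore uncertain, and so is that of much of the SI granulocyte-like set.

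**Figure D2:**
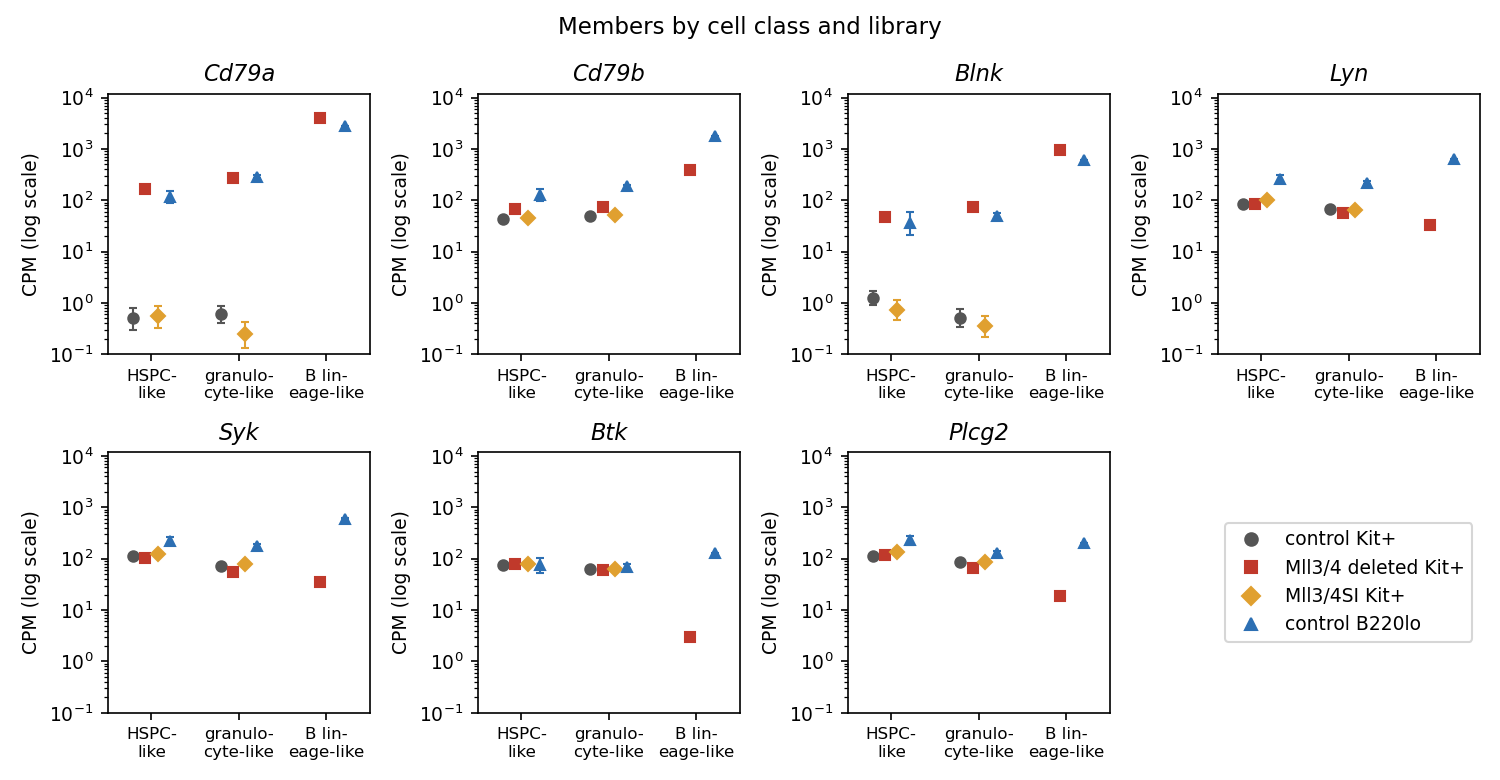
Level of each member (CPM on a log axis, with 95% counting intervals) in HSPC-like, granulocyte-like and B lineage-like cells of each library, for sets of at least 50 cells. In the deleted library Lyn, Syk, Btk and Plcg2 are lower in B lineage-like cells than in the other classes plotted; in B220lo Lyn, Syk and Btk are highest in B lineage-like cells, and Plcg2 is at 202 CPM there and 230.0 CPM in 50 HSPC-like cells.

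Cd79a and Blnk were past 2-fold higher than control in both of those deleted classes, where 2.17% of genes (HSPC-like) and 2.35% (granulocyte-like) were. No member was past 2-fold lower there, against 3.85% and 2.58% of genes. Cd79a stood at 163 CPM in deleted HSPC-like and 265 CPM in deleted granulocyte-like cells, against 0.501 and 0.598 CPM in control cells. These values were 4.00% and 6.52% of the B lineage-like level of the same library, and those of Blnk were 4.75% and 7.55%. The 9 B lineage markers with enough UMIs had medians of 4.68% (3.29% to 89.3%) and 7.45% (6.48% to 140%) there. Cd79a and Blnk were near those medians, and no expression in these classes is read from them; the part of free RNA and undetected doublets was not tested. In granulocyte-like clusters 3 and 7 Cd79a was at 18.9 and 25.98 CPM, and in the smaller clusters 8 and 15 at 834 and 1769 CPM. In the other direction, granulocyte markers in the deleted B lineage-like cells were at 0.0956% to 0.378% of their granulocyte-like level, while Btk was at 4.84%, Plcg2 at 28.7%, Lyn at 58.5% and Syk at 62.7%. Set against HSPC-like cells, 9 HSPC markers were at 0.233% to 375% (median 12.1%) and Btk at 3.79%; the part of RNA from other cells in the Btk level was not tested. In B220lo T or NK-like cells, Btk was at 7.77% of its B lineage-like level, beside a median of 6.70% for B lineage markers.

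In SI cells no member was past 2-fold from control among HSPC-like cells, where 1.51% of genes were higher and 0.698% lower. Among granulocyte-like cells Cd79a was 2.42-fold lower (1.22 to 5.06), on 13 against 29 UMIs, and no other member was past 2-fold, with 1.81% of genes lower and 2.99% higher. Without cluster 9 the Cd79a difference rested on 1 against 29 UMIs, 15.05-fold lower (2.495 to 615). Kept control Kit+ cells had 528 Cd79a UMIs in 63 cells, of which 445 UMIs were in 42 B lineage-like cells. The remaining UMIs thus came from few cells, while the intervals treat UMIs as independent counts. No expression of Cd79a in granulocyte-like cells is read from them, and the part of free RNA and undetected doublets was not tested.

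Contig states were read from the deposited tables of assembled antigen receptor contigs: no contig, a heavy chain (IGH) alone, or IGH with a kappa or lambda light chain. Of the deleted B lineage-like cells 9850 had no contig, 2963 had IGH only, 20 had IGH plus a light chain and 13 a light chain only. In B220lo the numbers were 3588, 1698, 6352 and 563. Contigs are recovered only when enough receptor RNA is captured, so no contig does not mean no rearrangement. The median totals were 6254 and 6298 UMIs for the first states in deleted cells, and 2582, 3051 and 2982 UMIs in B220lo.

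In the deleted library a heavy chain contig went with almost no difference in the members. Cd79a stood at 4086 CPM without a contig and 4014 CPM with IGH only, Cd79b at 391 and 378, and Blnk at 975 and 968. Lyn stood at 32.8 and 35.4 CPM, Syk at 34.4 and 37.3, and Plcg2 at 18.4 and 18.9. Apart from Btk, the ratios of IGH only over no contig ran from 0.967 (Cd79b, 0.944 to 0.991) to 1.08 (Syk, 1.0003 to 1.17). Btk, at 3.36 CPM (2.95 to 3.80, 246 UMIs) and 1.51 CPM (1.05 to 2.11, 34 UMIs), was past 2-fold lower, as were 0.186% of genes. Counted at 2000 UMIs a cell, 0.505% of cells without a contig (0.373 to 0.669) and 0.382% with IGH only (0.191 to 0.683) had a Btk UMI, and those intervals overlap. At that depth Btk was not past 2-fold (log2 ratio -0.49), nor was it with doublets kept or with 1 CPM added to each level. None of the 51 other pathway genes was past 2-fold between these states, of 43 with enough UMIs, beside 0.251% of all genes higher.

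In B220lo cells the members were lowest with IGH only and mostly highest with both chains. Cd79a stood at 2332 CPM without a contig, 2085 with IGH only and 3286 with both chains, and Cd79b at 1340, 1281 and 2119. Lyn stood at 589, 411 and 725 CPM and Plcg2 at 204, 153 and 218. Blnk stood at 782, 487 and 548 CPM, Syk at 659, 508 and 609, and Btk at 134, 107 and 130, all 3 highest without a contig. For Btk the intervals without a contig (129 to 140) and with both chains (125 to 134) overlapped. No member was past 2-fold at either step, against 0.358% of genes higher and 3.91% lower at the first step and 4.52% higher and 0.874% lower at the second. The largest ratios were 0.623 (0.602 to 0.644) for Blnk at the first step and 1.76 (1.70 to 1.83) for Lyn at the second, which was 1.17 without cluster 14. Cycling differed with the state: genes of the G2 and M phases summed to 4017, 5288 and 2695 CPM.

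Much of the dip at IGH only went with cluster 14, cycling B220lo cells with high totals (1520 cells, median 9238 UMIs). Its G2 and M phase genes summed to 7110 CPM, beside 9061 in cluster 28. Hbb-bs was among its leading genes, and at resolution 0.5 a cluster of 1485 cells led by Hbb-bs and Myl4 was left unnamed. In B220lo B lineage-like cells 9 erythroid markers summed to 179 CPM without a contig, 516 with IGH only and 51.6 with both chains. Their part in the dip was not tested. Without cluster 14 the log2 ratio of IGH only over no contig turned from -0.16 to 0.26 for Cd79a, from -0.06 to 0.37 for Cd79b and from -0.37 to 0.04 for Syk. It moved from -0.52 to -0.14 for Lyn and from -0.68 to -0.27 for Blnk. At the second step, without that cluster, both chains over IGH only turned to -0.35 for Blnk and Syk, and was 0.22 for Lyn, 0.24 for Cd79a, Cd79b and Plcg2 and -0.04 for Btk. Cells with IGH plus kappa (5068) and with IGH plus lambda (1061) were close: Cd79b stood at 2115 and 2079 CPM, Lyn at 729.5 and 686, Syk at 605 and 620, and Btk at 131 and 125.

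**Figure D3:**
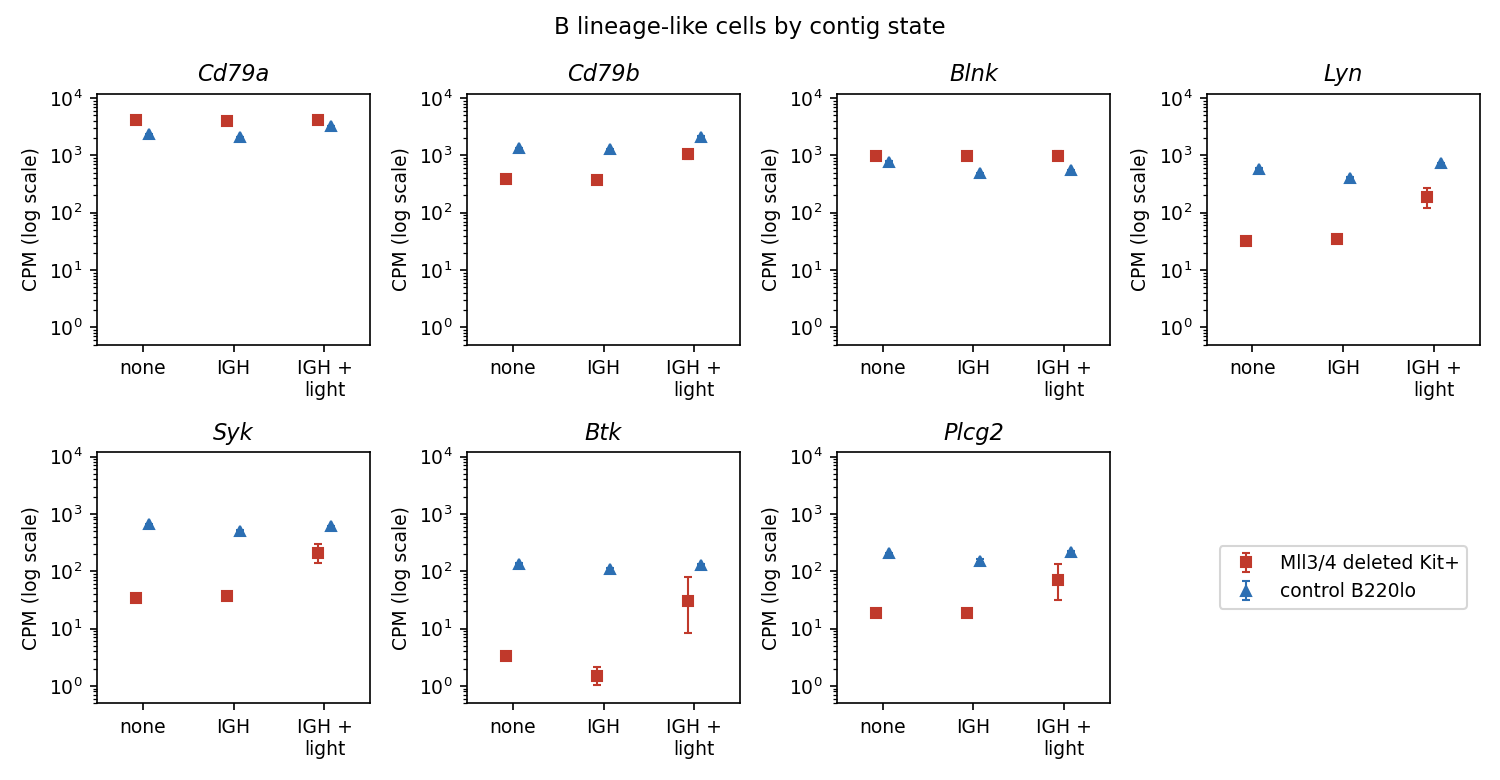
Level of each member (CPM on a log axis, with 95% counting intervals) in B lineage-like cells with no contig, IGH only, and IGH plus a light chain. Deleted cells lie far below B220lo cells for Lyn, Syk, Btk and Plcg2 in the first 2 states, and the third deleted state rests on 20 cells.

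The 20 deleted cells with both chains had more Cd79b, Lyn and Syk than the cells with IGH only: 1040 against 378 CPM, 185 against 35.4 and 208 against 37.3. These 3 members were past 2-fold higher, as were 1.28% of genes, with 18.2% lower. In 20 cells many genes cannot reach the 10 UMIs needed for a higher call, and a gene with no UMI can count as lower. Those shares therefore depend on the small size of the set. Btk (4 UMIs) and Plcg2 (9 UMIs) had too few UMIs for a call. The 20 cells were of 2 kinds by cluster. The 10 in clusters mostly of B220lo cells had 3097 CPM of Cd79b (2467 to 3839), 672 of Lyn (398 to 1061), 522 of Syk (286 to 876) and 149 of Btk (40.7 to 382). The 10 in clusters 24 to 27 had 505 CPM of Cd79b (377 to 662), 58.3 of Lyn (21.4 to 127), 126 of Syk (67.2 to 216) and no Btk UMI, which allows up to 29.1 CPM. Y-linked UMIs were present in 6 and 9 of the 10 cells, and no Xist UMI was found in either set. In all, 21 deleted B lineage-like cells lay outside clusters 24 to 27, with 376 CPM of Lyn (250 to 544), 376 of Syk (250 to 544), 94.1 of Btk (37.8 to 194) and 175 of Plcg2 (93.0 to 299). Lyn and Syk were below the 630 and 604 CPM of B220lo B lineage-like cells by more than counting error, and the intervals of Btk and Plcg2 held the B220lo levels, in a library whose other B lineage-like cells had 33.3, 35.1, 2.89 and 18.4 CPM.

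At matched contig state the deleted cells had 5 of the 7 members past 2-fold lower than B220lo cells. Without a contig Btk was 40.0-fold lower (35.05 to 45.9), Syk 19.1-fold (18.3 to 19.997), Lyn 18.0-fold (17.2 to 18.8), Plcg2 11.1-fold (10.4 to 11.9) and Cd79b 3.43-fold (3.37 to 3.49), where 13.9% of genes were lower and 14.9% higher. Over the alternatives run, the log2 ratio of Btk in that state ran from -5.75 to -2.68, the smallest difference being over all kept cells without a contig. With IGH only Btk was 71.1-fold lower (50.5 to 103), Syk 13.6-fold (12.7 to 14.7), Lyn 11.6-fold (10.8 to 12.6), Plcg2 8.10-fold (7.27 to 9.04) and Cd79b 3.39-fold (3.30 to 3.48), where 9.92% of genes were lower and 16.1% higher. Without cluster 14 these became 109-fold for Btk, 25.4-fold for Syk, 22.0-fold for Lyn, 11.2-fold for Plcg2 and 5.82-fold for Cd79b. Cd79a was 1.75-fold (1.73 to 1.77) and 1.92-fold (1.90 to 1.95) higher in these states, and Blnk 1.25-fold (1.22 to 1.27) and 1.99-fold (1.93 to 2.05). Without cluster 14 the ratios of deleted over B220lo were 1.47 and 1.21 for Cd79a and 1.014 and 1.21 for Blnk, and the first Blnk ratio was within counting error of 1. In both states the median log2 ratio over all genes was within 0.1 of 0, at -0.07 and -0.04. With both chains the same 5 members were past 2-fold lower, from 2.04-fold for Cd79b to 4.21-fold for Btk (1.64 to 15.5, 4 UMIs), as were 25% of genes, with 3.11% higher. The small deleted set affects both of these shares. That last comparison includes the 10 cells in clusters mostly of B220lo cells; without them Lyn was lower by 3.64 on the log2 scale in place of 1.97.

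The pattern was also seen in the share of cells. At 2000 UMIs a cell, Cd79a was found in 98.9% of deleted cells without a contig (98.7 to 99.1) and 90.7% of B220lo cells (89.5 to 91.7), and Blnk in 82.6% and 75.9%. Lyn was found in 6.87% (6.37 to 7.40) against 61.9% (60.0 to 63.7), Syk in 7.85% against 68.6%, Plcg2 in 3.30% against 32.3% and Btk in 0.505% against 24.3%. Cd79b was found in 53.2% and 84.9%. Both receptor chains were found together in 52.8% and 79.8% of these cells. Of the 7 members, a deleted cell without a contig had 2.53 ± 0.783 detected (SD over 9505 cells of 1 library) and a B220lo cell 4.38 ± 1.24 (2611 cells).

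**Figure D4:**
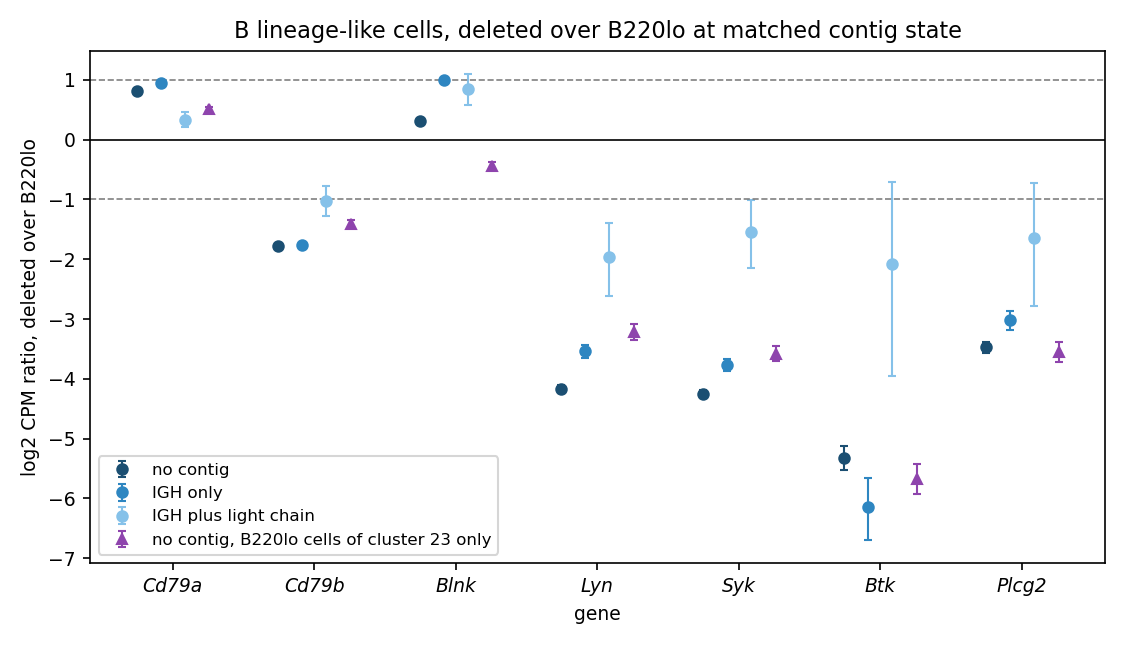
Log2 CPM ratio of deleted over B220lo B lineage-like cells for each member (95% counting intervals), at each contig state and against B220lo cells of cluster 23 alone; dashed lines mark 2-fold. Cd79a and Blnk lie within 2-fold, Cd79b below it, and Lyn, Syk, Btk and Plcg2 at -3.02 to -6.15 in the first 2 states.

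Since B220lo cells without a contig can be of several stages, the deleted cells were also set against cluster 23 alone, which had the lowest share of cells with a heavy chain among the B lineage-like B220lo clusters of at least 100 cells (10.4% of 550 cells). This choice was made after the levels were seen. A light chain contig was found in 12% of cluster 23 cells. In the deleted B lineage-like clusters of at least 100 cells that share was at most 0.211%. Genes of the G2 and M phases summed to 624 CPM in cluster 23 and to 4022 CPM in deleted cells without a contig. Stage and cycling were therefore not matched here either. The 469 cells of cluster 23 without a contig had 2874 CPM of Cd79a, 1324 of Blnk, 1039 of Cd79b, 306 of Lyn, 412 of Syk, 171 of Btk and 215 of Plcg2. Btk was 51.0-fold lower in deleted cells (42.9 to 60.7), Syk 12.0-fold (10.998 to 13.02), Plcg2 11.7-fold (10.4 to 13.2), Lyn 9.33-fold (8.47 to 10.3) and Cd79b 2.66-fold (2.53 to 2.79), so the same 5 were past 2-fold lower, as were 14.8% of genes, with 17.6% higher. Blnk was 1.36-fold lower (1.30 to 1.42) here, the opposite direction to the comparison with all such B220lo cells.

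Markers of other cell types differed between these sets too. Without a contig, the 12 B lineage markers summed to 5568 CPM in deleted and 9661 CPM in B220lo cells, and with IGH only to 5622 and 7126. The 10 markers of HSPC summed to 471 and 197 CPM, and to 474 and 101. None of the HSPC markers was at 0 in these deleted cells, and 1 was in the B220lo cells, which had fewer UMIs in total. The HSPC markers were uneven over all deleted B lineage-like cells. Ly6a stood at 152 CPM, Hoxa9 at 99.8 and Meis1 at 87.6, against 40.6, 57.9 and 143 in deleted HSPC-like cells. Cd34 stood at 1.03 CPM and Hlf at 0.198, against 442 and 72.7. Without a contig, the 11 granulocyte markers summed to 153 CPM in deleted and 208 CPM in B220lo cells, and the 8 monocyte or dendritic markers to 11.3 and 316 CPM. The 7 plasmacytoid dendritic markers summed to 1242 and 1265 CPM. Their part in the members' differences was not tested.

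The low levels held in each B lineage-like deleted cluster of at least 100 cells, clusters 24 to 27. Over these 4 Btk ran from 1.62 to 4.03 CPM, Lyn from 24.8 to 102, Syk from 28.6 to 82.9 and Plcg2 from 16.6 to 49.4. Over the 6 B lineage-like B220lo clusters of that size Btk ran from 87.0 to 198 CPM, Lyn from 182 to 2107, Syk from 242 to 1644 and Plcg2 from 126 to 418. The ranges of the 2 libraries did not overlap for any of the 4. They overlapped for Cd79a, at 1511 to 4492 and 599 to 4743 CPM, for Blnk, at 808 to 1573 and 362 to 1300 CPM, and for Cd79b, at 201 to 556 and 399 to 3041 CPM. Cycling clusters were included: deleted cluster 24, with 9308 CPM of G2 and M phase genes, had 3.17 CPM of Btk, and B220lo cluster 28, with 9061, had 147.

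Cluster 27 of the deleted library and cluster 21 of B220lo stood apart from the other B lineage-like clusters of their libraries. Cluster 27 had the highest Lyn (102 CPM), Syk (82.9), Plcg2 (49.4) and Blnk (1573) and the lowest Cd79a (1511) of clusters 24 to 27. Cluster 21 had the highest Lyn (2107), Syk (1644), Btk (198) and Plcg2 (418) of the 6 B220lo clusters. Both had low totals, with medians of 3409 and 2041 UMIs. Cluster 27 was led by Magi1, Ntn1 and Grip1, and cluster 21 by Agbl1, Reln and Serinc5. Lyn, Syk, Plcg2 and Blnk are 65609 to 136852 bases long, and Cd79a is 4817. The part of gene length or intronic reads in these levels was not tested.

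Heavy chain clones gave the same picture. The 12 deleted clones with at least 50 cells, 1736 cells in all, each share a heavy chain, so they are lineages of 1 library and not replicates. Cd79a ran from 3657 to 4579 CPM over them, Blnk from 715 to 1182 and Cd79b from 177 to 516. Lyn ran from 25.4 to 45.6 CPM, Syk from 26.4 to 56.9, Plcg2 from 3.04 to 27.1 and Btk from 0 to 3.14. All 12 lay below each of those 6 B220lo clusters for Lyn, Syk, Btk and Plcg2. B220lo had no clone of that size: its largest held 9 B lineage-like cells, against 391 with IGH only in the deleted library.

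Of the rest of the pathway, 51 genes, more were lower than higher in the deleted cells in each contig state. Without a contig 31 of the 50 genes with enough UMIs were past 2-fold lower than in B220lo and 4 were higher, beside 13.9% and 14.9% of all genes, with a median log2 ratio of -1.45, beside -0.07 over all genes. With IGH only 24 of 49 were lower and 6 higher (median -0.91), beside 9.92% and 16.1% of all genes. With both chains 19 of 51 were lower and 5 higher (median -0.71), beside 25% and 3.11%, shares that depend on the few deleted cells of that state. By role, without a contig, 7 of 8 inhibitors, 9 of 15 effectors, 6 of 12 adaptors and exchange factors, and 6 of 7 target genes were lower. Of the 4 receptor genes 2 were lower and 2 higher, and of the 4 other kinases with enough UMIs 1 was lower and 1 higher. With IGH only 4 of 8 inhibitors and 7 of 14 effectors were lower, and with both chains 3 of 8 and 3 of 15.

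The genes that were higher include the surrogate light chain and a relative of Syk. Zap70, the T cell kinase of the Syk family, stood at 424 CPM in deleted and 13.04 CPM in B220lo cells without a contig, 32.5-fold higher (28.2 to 37.7), and 26.9-fold higher (22.9 to 31.8) with IGH only. Against cluster 23, with 13.5 CPM, it was 31.5-fold higher (21.0 to 49.6). Vpreb1, a surrogate light chain part, stood at 2873 against 922 CPM, 3.12-fold higher (3.06 to 3.17). Igll1, the other surrogate light chain gene, stood at 2777 against 1114 CPM, 2.49-fold higher (2.45 to 2.53). Vpreb2, a near copy of Vpreb1, went the other way, at 0.382 against 117 CPM; reads the copies share could be split between them, so both values are uncertain. Foxo1, a transcription factor that PI3 kinase signalling inactivates, stood at 1025 against 345 CPM, 2.97-fold higher (2.89 to 3.06). Cells with IGH only had larger ratios for Vpreb1 (7.68), Igll1 (4.22) and Foxo1 (5.15), since their B220lo levels were lower in that state.

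Among the genes that were lower, some were near 0 in the deleted cells. Blk, a Src-family kinase of B cells, had 2 UMIs in the 9850 deleted cells without a contig against 2764 UMIs in the 3588 B220lo cells, 0.0273 against 189 CPM. Rasgrp1, an activator of Ras, had 5 UMIs against 1102. Il2ra, the CD25 surface marker of small pre-B cells, had none against 1836, or at least 3062-fold lower when 3 UMIs are put in its place. With IGH only Dok3, an inhibitory docking protein, stood at 1.33 against 400 CPM, 300.2-fold lower (210 to 446). Ighm, the heavy chain constant gene, stood at 329 against 834 CPM without a contig and 510 against 841 CPM with IGH only. The kinase Blk and inhibitors such as Dok3 were both among the low genes.

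**Figure D5:**
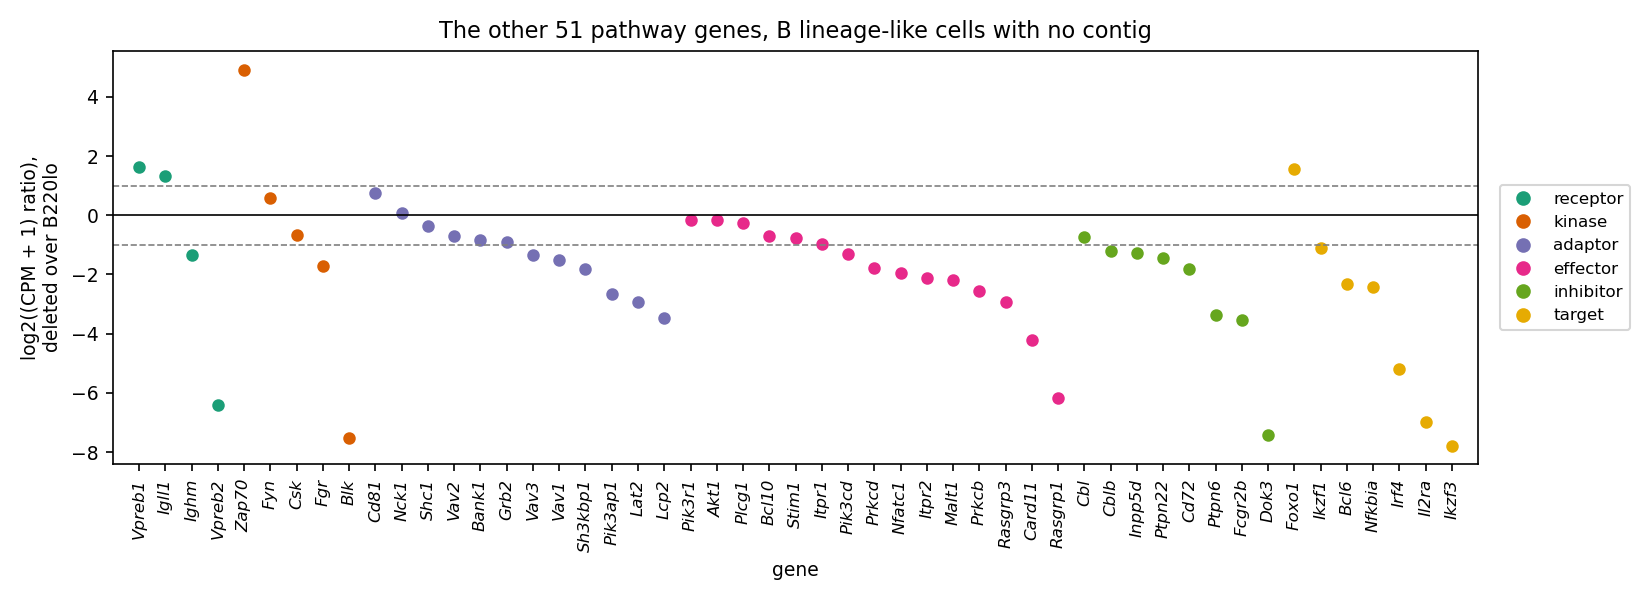
Log2 ratio of (CPM + 1), deleted over B220lo, for the other 51 pathway genes in B lineage-like cells with no contig, grouped by role; dashed lines mark 2-fold. Most genes lie below 0, and Zap70, Vpreb1, Foxo1 and Igll1 lie above the upper line.

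In the whole deleted library set against control Kit+, 19 of 47 pathway genes were past 2-fold higher and 7 lower, beside 16.7% and 13.6% of all genes. Zap70 had 368 CPM against 0.143 CPM there (20 control UMIs), Vpreb1 2482 against 3.37, Igll1 2390 against 3.56 and Foxo1 887 against 6.17. The adaptors Lat2 and Lcp2 were lower at 3.79 against 40.0 CPM and 4.21 against 44.4 CPM. In the SI library 3 of 44 were higher and 2 lower, close to the 4.69% and 2.31% of all genes: Fgr (3.33-fold), Lat2 (2.40-fold) and Ikzf3 (2.17-fold) were higher, and Igll1 (0.316) and Ighm (0.385) lower.

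Over the 22 sets of at least 50 cells (cell class by library, with B lineage-like cells of the deleted and B220lo libraries split by state), each member had its own order of levels. Cd79a was highest in the deleted cells without a contig and with IGH only, ahead of all B220lo sets, and Btk and Lyn had the same 2 sets at the bottom of their order. For Btk the order ran from B220lo B lineage-like cells (134 to 107 CPM) through megakaryocyte-like cells of control Kit+ (102) and HSPC-like cells (78.0 to 75.2) to T or NK-like cells (9.93). From rank 3 to rank 18 each Btk level overlapped the next within its counting interval. For Lyn the order began with B220lo cells with both chains (725 CPM), then monocyte or dendritic-like cells of B220lo (651), B220lo cells without a contig (589) and monocyte or dendritic-like cells of SI (526); of these neighbours only the second and the third overlapped. Plasmacytoid dendritic-like cells of B220lo had 302 CPM of Blnk, 359 of Lyn, 277 of Syk, 68.1 of Btk and 164 of Plcg2, and 193 CPM of Cd79a, which was 6.88% of the B lineage-like level.

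On log2(CPM + 1) over those 22 sets, Cd79a followed Blnk (Pearson r = 0.99) and Cd79b (0.87) but not Lyn (0.35), Syk (0.37), Plcg2 (0.19) or Btk (-0.35). Lyn followed Syk (0.94) and Plcg2 (0.81), and Syk followed Plcg2 (0.88). These sets share libraries and free RNA, so the values are a description. Among 15764 genes the 3 most like Cd79a were Vpreb3 (0.99), Ebf1 (0.99) and Blnk. Those most like Blnk were Sdc4 (0.99), Cd79a and Vpreb3 (0.98). Most like Cd79b were Atg16l2 (0.96), Cyfip2 (0.95) and Plekha2 (0.95), and most like Lyn were Ptprj (0.96), Syk and H2-DMb2 (0.93). Syk was most like Lyn, Dgkd (0.94) and Hdac5 (0.92), Plcg2 like Slc43a2 (0.94), Hdac5 (0.93) and Cflar (0.91), and Btk like Spns3 (0.90), Treml2 (0.89) and Myo18a (0.85).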

How the data were processed

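The authors deposited filtered matrices of raw UMI counts per gene and barcode, not normalized, from 10x Genomics 5′ version 2 libraries, with tables of assembled receptor contigs. They were made with Cell Ranger 7.1.0 and build mm10, per the submitters' processing notes. Whether intronic reads were counted is not given in the sources used here.

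Kept cells had at least 1000 UMIs, 500 genes and at most 10% mitochondrial UMIs. Scrublet's own threshold marked 0 or 1 barcode in 3 libraries, so a score of 0.25 was used instead, and it removed 580 to 1168 barcodes a library. Cells of all libraries were clustered together with scanpy 1.11.5 (2000 variable genes, 30 components, 15 neighbours, Leiden resolution 1). A cluster was named from at least 3 markers that were 2-fold over the mean of clusters; cluster 14 was set against the median cluster. This naming rule was set after the clusters were seen.

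UMI counts were summed per set of cells and scaled to a total of 1000000 (CPM), with exact Poisson intervals, ratios with exact conditional binomial intervals and shares with Clopper-Pearson intervals. Intervals and limits cover counting error only. For shares, cells were thinned to 2000 UMIs and shallower cells left out. Past 2-fold means a CPM ratio over 2 with at least 10 UMIs in the higher set; percentages of genes refer to genes with at least 100 UMIs over both sets. On simulated counts for IGH only over no contig in B220lo (8714 genes), 100% of 200 genes made 4-fold different were past 2-fold in the right direction. Those counts had Poisson error alone and at least 100 expected UMIs in each set, so this result was nearly sure beforehand. It says nothing of calls on few UMIs or of differences between libraries. The members and lists were chosen with earlier results of these data known. Named pathway genes are up to 4 a direction with the largest ratio and at least 100 UMIs in the higher set; others were chosen after their values were seen. Of the pathway list, 1 gene is not reported here and is left out of its counts. Promoter and position data are from RefSeq (GRCm38.p6) and GENCODE M21.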

Additional observations from a re-analysis of the deposited data

Results flagged for a closer look

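In the main setting Syk went in opposite directions with a heavy chain contig in the 2 libraries. Its log2 CPM ratio of IGH only over no contig was 0.11 in deleted cells and -0.37 in B220lo cells, and the difference was not tested. The B220lo value was 0.04 without cluster 14, so the opposite sign of Syk did not hold without that cluster. Over all alternatives run, the Syk value went from -0.08 to 0.12 in deleted and from -0.37 to 0.30 in B220lo cells. Neither sign held throughout. Lyn (0.11 and -0.52) and Plcg2 (0.04 and -0.41) had opposite signs too, with deleted intervals that include 0, and their B220lo values without cluster 14 were -0.14 and -0.22.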

How the results depend on the processing

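Counts of members past 2-fold were recomputed under other cell filters, doublet, depth, contig and cluster settings, and Lyn, Syk, Btk and Plcg2 were past 2-fold lower in deleted than in B220lo cells under every one run, without a contig and with IGH only. Cd79b was too, except over all kept cells without a contig (log2 ratio -0.96). Of the recomputed counts, 17 moved by over 1.5 times and 205 did not. Of the members' log2 ratios 280 left their counting interval and 591 did not, and of the shares of cells with a UMI 54 did and 2 did not. Such shares change with depth itself. For Cd79b in control Kit+ the share was 7.56% at 2000 UMIs a cell, 3.79% at 1000 and 30.9% without thinning. Thinned to 2000 UMIs, 4 members were lower in deleted over control Kit+ in place of 2, 1 in SI over control in place of 0, 1 in SI HSPC-like in place of 0, 0 in SI granulocyte-like in place of 1, and 0 with IGH only over no contig in deleted in place of 1. With doublets kept, that last count was also 0, SI HSPC-like had 1 higher, and SI granulocyte-like had 2 lower. In deleted over B220lo, 1 member was higher without a contig in all kept cells or in cells with at least 2 B lineage markers, 2 with IGH only under the stricter filter or on totals without immunoglobulin, ribosomal and mitochondrial genes, and 1 with both chains in all kept cells. These were in place of 0. With contigs of at least 3 UMIs, 3 in place of 5 were lower with both chains (13 deleted cells). With deleted cells of clusters 24 to 27 only, an alternative added after the data were seen, 1 member was higher with both chains over B220lo in place of 0, and IGH plus light chain over IGH only had 1 higher in place of 3 and 1 lower in place of 0, which is Btk with no UMI in 10 cells and so no evidence of a difference. The cause of the moves in counts and log2 ratios was not tested. The 20 deleted cells with both chains limit what can be said of that state, and Btk in deleted cells with IGH only rests on 34 UMIs. No paired analysis was possible because each group is 1 library.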
